A study of Rattus norvegicus with 24 samples.

Results

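The injured rat spinal cord 7 days after a clip compression was set against the injured cord 1 day after it, to ask which transcripts differ between these days. The comparison took 8 of the 24 arrays of the series, chosen by their titles alone: the 4 arrays titled as injured at 1 week (day 7) and the 4 titled as injured at 1 day (day 1). The other arrays are 4 of sham-operated rats and 4 each of day 3, day 14 and day 56. They entered only as references and through the estimate of the spread.

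The rats were female Wistar rats, an outbred strain. By the labels and the methods, a laminectomy opened the spine at T6 to T8, and a 35 g clip, which presses the cord from both sides, was closed at T7 for 1 min. A piece of cord around the injury epicenter was taken from each rat, and the RNA of each rat was hybridized to its own Affymetrix Rat Genome 230 2.0 array. The sources used here do not give the rats' age. Each day is a separate set of rats, so the comparison is between animals and follows none over time. The piece is bulk tissue holding neurons, glia, vessels, meninges and whatever blood cells have entered. In such tissue fewer cells of a type and less RNA per cell cannot be told apart.

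Compression of the cord shears axons and vessels, and blood enters the tissue. Injured and stressed cells switch on immediate early and heat shock genes, and neutrophils and then monocytes are drawn in by chemokines. Microglia and infiltrating macrophages divide and clear myelin debris, astrocytes become reactive, and oligodendrocyte precursors proliferate and later form new myelin. Fibroblasts and astrocytes lay down a scar over the following weeks.

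Values are log2 GCRMA expression values per probe set, and a difference of 1 is a 2-fold change. Where a gene has several probe sets, the one with the brightest mean across the 24 arrays stands for it, which gave 14218 genes. Values are listed in the order of replicates 1 to 4, and a change is the day 7 mean minus the day 1 mean. GCRMA gives a probe set without signal a nearly fixed low value that differs between probe sets. A change against a group at that floor has a direction but no exact size, and levels are compared within a gene only.

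The 8 arrays resembled each other closely over all probe sets, with pairwise correlations of 0.985 to 0.993 within day 1, 0.973 to 0.992 within day 7 and 0.955 to 0.989 between the days. Markers of cord tissue were high on all of them, with the myelin gene Mbp at 14.8 to 15.01 on day 1 and 14.9 to 15.3 on day 7 and the astrocyte gene Gfap at 13.8 to 14.4 and 14.2 to 14.9. The median correlation of day 7 replicate 2 with the day 1 arrays (0.986) was above that with its own group (0.984). For day 1 replicate 3 the median correlations with its own group and with the day 7 arrays were both 0.987. The 27 bacterial control probe sets without a rat target averaged 2.82 on the day 1 arrays and 2.67 on the day 7 arrays, a difference of -0.15 without overlap (exact permutation test, 4 against 4, two-sided, p = 0.029, the smallest this design allows). The median change over all genes was -0.07. The methods state that the arrays of a time point were pre-processed apart from the others, so a shift from that step and a shift between the days cannot be told apart. The 3′ to 5′ difference of beta-actin, a sign of RNA integrity, was 0.97 and 1.07 (exact permutation p = 0.20). That of GAPDH was 0.048 and 0.0025 (exact permutation p = 0.14), and that of hexokinase 1.06 and 1.03 (exact permutation p = 0.91). For hexokinase the day 7 arrays read 0.76, 1.65, 1.06 and 0.64, with replicate 2 the highest. The median SD between replicates of the 8858 genes with a mean over 5 on either day was 0.255 on day 1 and 0.273 on day 7, against 0.168 to 0.212 in the other 4 groups. The main fit pools all 6 groups, and a fit of the 8 arrays alone is therefore given beside the main counts.

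The labelled order of the days sets the direction of every change below. The arrays labelled day 3 held the highest means of transcripts that injury raises within hours, and the arrays labelled day 1 held the highest means of transcripts of dividing cells. Fosl1, an AP-1 subunit, averaged 6.2 on the arrays labelled day 1 and 8.7 on those labelled day 3. Hspa1a, the inducible form of the HSP70 chaperone, averaged 10.04 and 12.2. Mki67, a marker of dividing cells, averaged 11.7 and 9.1. Snap25, a presynaptic protein of neurons, averaged 10.4 and 13.5, against 12.03 on day 7. Whether any label is exchanged was not tested. The labels are used as given, and "day 1 arrays" means the arrays labelled so throughout.

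Across all genes, 3009 of 14218 (21.2%) differed between day 7 and day 1 at an adjusted p under 0.05 in the linear model. Of these, 875 (6.15%) were higher and 2134 (15%) lower on day 7. Many of the differences were small: 1341 of the called genes (44.6%) moved by less than 0.5, and 900 (29.9%) had both means under 5. With a change of at least 1 required as well, 720 genes (5.06%) remained in the count, 309 higher (2.17%) and 411 lower (2.89%). The 4 values of each day did not overlap for 172 of those 309 and for 280 of those 411. Over all genes, called or not, the values did not overlap for 4057 (28.5%). A change of at least 3 was found for 20 genes in the higher and 46 in the lower direction. Taking the day 3 arrays out of the fit gave 964 higher and 3304 lower genes, of which 318 and 425 moved by at least 1. The fit of the 8 arrays alone called 164 genes (1.15%), 49 higher (0.345%) and 115 lower (0.809%). By level, 31 genes higher and 869 lower were called among the 5360 genes with a mean under 5, and 211 and 266 among the 1493 with a mean of at least 11.

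**Figure D1:**
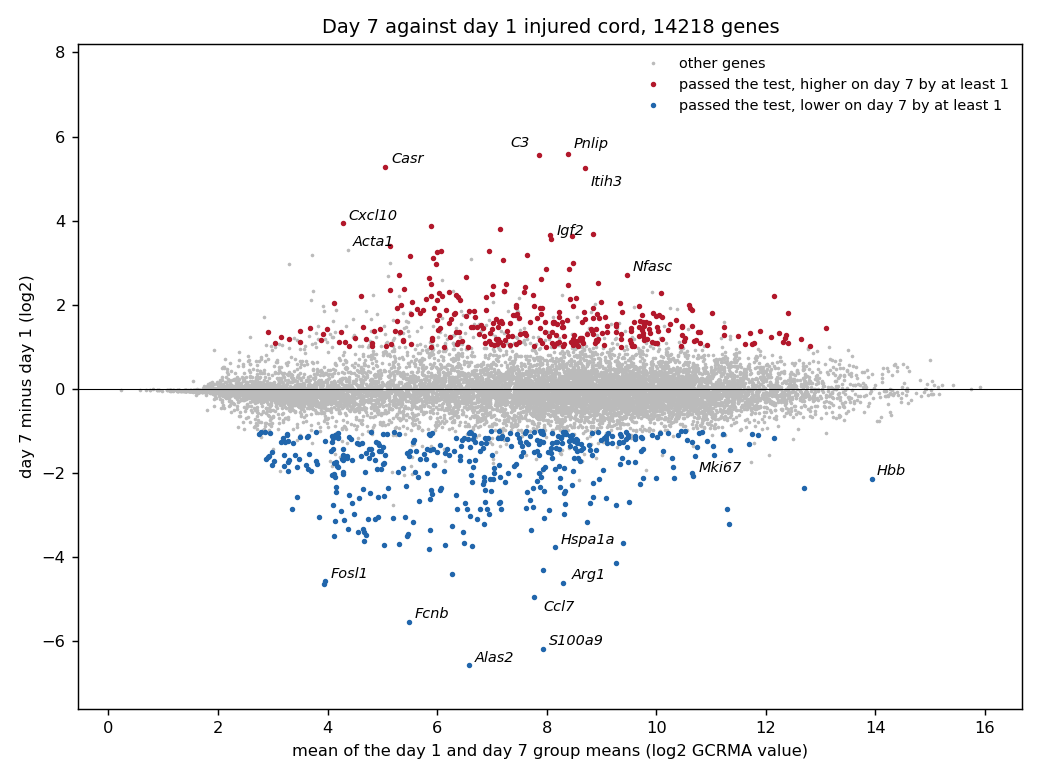
Each point is 1 of 14218 genes, with the mean of its day 1 and day 7 group means on the x axis and day 7 minus day 1 on the y axis, both on the log2 scale. Red marks the 309 genes called with a change of at least 1 upward and blue the 411 that did so downward, and the named points reach from Alas2 at -6.56 to Pnlip at 5.60.

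Gene lists of cell types and processes are described by how many of their measured members were called with a change of at least 1, beside the 2.17% of all genes that were so called higher and the 2.89% called lower. The list with the most called members was DNA replication and mitosis. Of its 94 measured members 72 fell by at least 1 and none rose, and 84 passed the test in all. Its median change was -1.91, and the day 1 and day 7 values did not overlap for 81 of them, against 28.5% of all genes. The mean level of the list was 7.09 to 7.55 on the day 1 arrays, 4.71 to 6.36 on the day 7 arrays and 4.03 to 4.22 on the sham arrays. The fit of the 8 arrays alone called 13 members, 12 of them with a change of at least 1.

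Bub1, a kinase of the spindle checkpoint, had values of 8.6, 8.3, 8.1 and 8.9 on day 1 and 4.9, 7.3, 3.3 and 3.6 on day 7. It fell by 3.72 (SE 0.52, adjusted p = 0.00015). Day 7 replicate 2 was the highest of its group and still below every day 1 array. Its checkpoint partner Bub1b went from 6.5, 6.2, 6.0 and 6.7 to 2.4, 4.5, 2.4 and 2.6, a fall of 3.39 (SE 0.35, adjusted p = 5.7e-06). Nuf2, a kinetochore subunit that grips spindle microtubules, read 6.2, 6.7, 6.1 and 6.7 on day 1 and 2.6, 3.9, 2.4 and 2.9 on day 7. The Nuf2 change of -3.48 had an SE of only 0.23 (adjusted p = 1.4e-08) and passed with the 8 arrays alone (adjusted p = 0.014). The mitotic motor Kif15 went from 6.3, 6.1, 5.8 and 7.7 to 3.0, 3.9, 2.3 and 2.4 (change -3.60, adjusted p = 1.1e-06). A second spindle motor, Kif11, fell by 3.50 (its other probe set changed by -1.22), and the values of its day 7 arrays spread over 1.8 to 5.8. Birc5 (survivin, of the chromosomal passenger complex) fell by 3.39, cyclin B1 (Ccnb1) by 3.25 and, outside the list, the spindle protein Aspm by 3.68. Knstrn, a kinetochore gene that is also outside the list, fell by 3.80, with 1 day 7 array at 6.6 and the others at 2.9 to 3.3.

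The level of the list on day 7 lay above that of sham cord on every array. Mki67 read 11.6, 11.7, 11.5 and 12.1 on day 1 and 9.7, 10.95, 8.3 and 9.7 on day 7, with a sham mean of 5.0. It fell by 2.07 (SE 0.44, adjusted p = 0.0045) between the days. DNA topoisomerase Top2a, which untangles replicated chromosomes, averaged 9.95 on day 1 and 7.7 on day 7 (change -2.22, adjusted p = 0.0073), with a sham mean of 4.4. In both genes day 7 replicate 2 was the highest and replicate 3 the lowest of the group, and all 4 day 7 arrays lay below the day 1 arrays.

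The promoters of 3 list members are shown because a CCAAT box and the cell cycle homology element TTTGAA are the textbook elements of genes expressed late in the cell cycle, and these members fell together. They are the 3 members with the largest fall among those holding both elements near the start, chosen after their values were seen: Kif23 (change -3.35), Plk1 (-3.32) and Espl1 (-3.16). Each sequence is from RefSeq on build GRCr8, runs 5′ to 3′ from 110 bases before the gene's start to 30 after it, and has CCAAT (or its reverse complement ATTGG) and TTTGAA in capitals.
Kif23 (chr8:71320555-71320694, minus strand): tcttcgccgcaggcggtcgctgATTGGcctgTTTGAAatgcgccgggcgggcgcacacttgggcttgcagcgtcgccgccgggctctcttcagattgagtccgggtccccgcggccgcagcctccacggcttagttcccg
Plk1 (chr1:186147548-186147687, plus strand): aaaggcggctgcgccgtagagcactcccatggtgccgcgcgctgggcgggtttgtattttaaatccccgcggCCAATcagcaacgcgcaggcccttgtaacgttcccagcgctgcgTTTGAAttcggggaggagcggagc
Espl1 (chr7:135302606-135302745, plus strand): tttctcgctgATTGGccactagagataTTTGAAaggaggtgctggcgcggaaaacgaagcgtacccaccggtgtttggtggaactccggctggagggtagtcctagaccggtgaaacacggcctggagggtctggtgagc
In the 300 bases around the start, on either strand, CCAAT occurred in 58 of the 81 list members with a promoter sequence (71.6%), against 37.7% of 27457 promoters. TTTGAA occurred in 39 of the 81 (48.1%), against 18.1%. Among the 62 members that fell by at least 1 the shares were 71.0% and 51.6%. CACGTG, the E-box, occurred in 7.41% of the list and 6.65% of all promoters. These are matches of letters and not evidence of a bound factor.

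**Figure D2:**
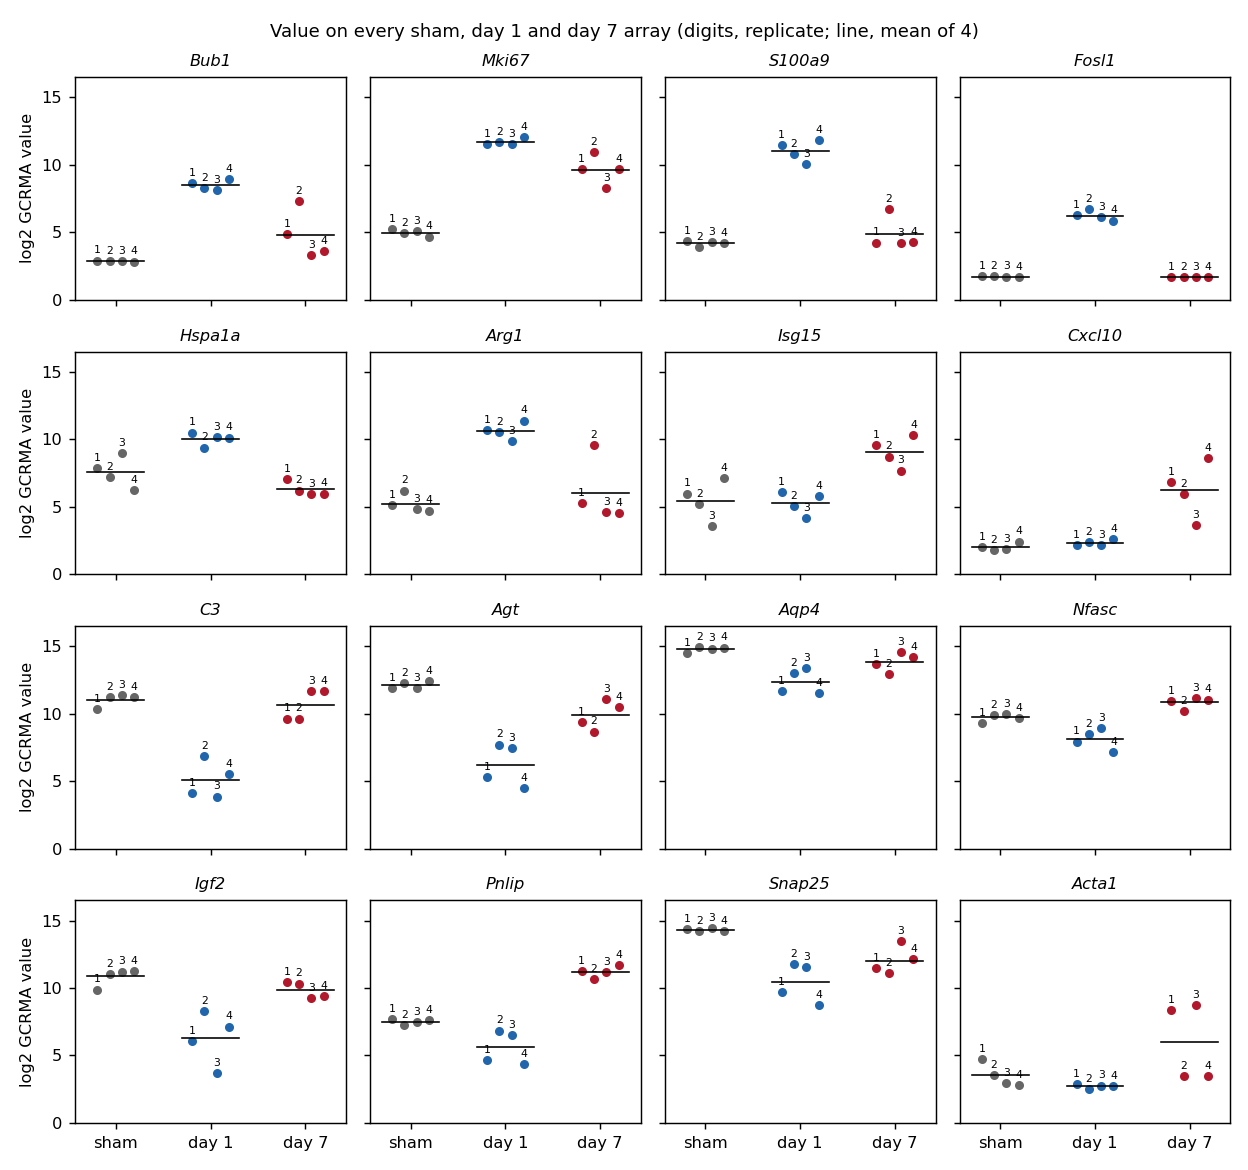
Each panel shows 1 gene with its log2 GCRMA value on every sham (gray), day 1 (blue) and day 7 (red) array, where the digit is the replicate and the line the mean of 4. Bub1, S100a9, Fosl1, Hspa1a and Arg1 lie lower on day 7, Isg15, Cxcl10, C3, Agt, Nfasc, Igf2 and Pnlip higher, while Acta1 is high on day 7 replicates 1 and 3 only.

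Neutrophils are the first blood leukocytes to enter injured tissue. Of 13 measured members of the neutrophil list 4 fell by at least 1, 1 fell by less and none rose, with a median change of -0.15. The list averaged 5.39 to 5.55 on the day 1 arrays and 3.22 to 4.42 on the day 7 arrays. S100a9, a subunit of calprotectin, had day 1 values of 11.4, 10.8, 10.04 and 11.8 and day 7 values of 4.2, 6.7, 4.2 and 4.2. It fell by 6.17 (SE 0.55, adjusted p = 7.4e-07) and passed in the 8 arrays alone (adjusted p = 0.021). Its partner S100a8 went from 8.9, 7.9, 7.6 and 9.5 to 4.0, 4.3, 4.0 and 4.0 (change -4.41, adjusted p = 8.7e-09). Fcnb, a ficolin made by myeloid cells, read 8.5, 7.4, 7.9 and 9.2 and then 1.8, 5.2, 1.8 and 2.2 (change -5.53, adjusted p = 1.2e-06). Day 7 replicate 2 was the high array in all of these. The secreted protease inhibitor Slpi fell by 4.14 (SE 0.72, adjusted p = 0.0011). Lcn2, an iron-sequestering protein of neutrophils and reactive astrocytes, split the day 1 arrays into 4.6, 9.2, 8.7 and 3.7 and did not pass the test (change -2.76, adjusted p = 0.06). Mmp8, the neutrophil collagenase, had values of 3.2, 2.7, 2.8 and 3.3 and 6.0, 7.6, 2.9 and 3.0 and did not pass either (adjusted p = 0.098). It was high on day 7 replicates 1 and 2 and near its floor on the other 6 arrays.

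Among 26 chemokines 2 fell and 2 rose by at least 1, with a median change of -0.06. The 2 risers became 0 without day 1 replicate 1 or 4 or day 7 replicate 1 or 4 and 1 without day 7 replicate 3. Ccl2, which draws monocytes, went from 13.9, 12.3, 12.4 and 13.2 to 9.0, 10.7, 8.7 and 10.5, a fall of 3.21 (SE 0.50, adjusted p = 0.00036). Its neighbor in function Ccl7 fell from 10.9, 9.2, 9.8 and 10.97 to 3.6, 8.3, 3.5 and 5.8 (change -4.94, adjusted p = 0.00036). Day 7 replicate 2 was again the nearest to the day 1 arrays. Il33, an alarmin held in nuclei of glia and released on damage, read 12.6, 12.5, 12.8 and 13.002 and 9.9, 10.5, 9.3 and 9.8. It fell by 2.84 (SE 0.21, adjusted p = 6.4e-08), and it passed with the 8 arrays alone (adjusted p = 0.01). It was 1 of 3 of the 28 cytokine and receptor genes that fell, and the only one to do so by at least 1, although 2 did without day 1 replicate 2 or 3 or day 7 replicate 2. The lymphoid attractant Cxcl12 had higher values on day 7 (11.6, 11.8, 9.0 and 9.9) than on day 1 (8.7, 9.3, 6.8 and 9.6), but the groups overlapped and it did not pass (adjusted p = 0.12).

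Several of the largest falls outside the mitosis list were in genes of macrophages and other leukocytes. Arg1, the arginase of alternatively activated macrophages, read 10.7, 10.5, 9.9 and 11.4 on day 1 and 5.2, 9.6, 4.6 and 4.6 on day 7. It fell by 4.61 (SE 0.79, adjusted p = 0.00089), with day 7 replicate 2 near the day 1 arrays and the other 3 within the sham range (sham mean 5.2). Adam8, a membrane protease of leukocytes, fell by 4.30 (SE 0.69, adjusted p = 0.00051), while its other probe set changed by 0.09. Napsa, an aspartic protease, went from 7.6, 5.3, 4.8 and 7.3 to a floor of 1.5 to 1.9 (change -4.62, adjusted p = 5.1e-06). Most of the phagocyte program did not move in this way. In the list of lipid-laden phagocytes 2 of 35 members fell by at least 1, 1 further member fell by less and 1 rose by less, with a median change of -0.23. The count of 2 became 4 without day 7 replicate 2 and 1 without day 1 replicate 1 or 4 or day 7 replicate 3 or 4. The 2 were Arg1 and the scavenger receptor Cd36 (change -2.70, adjusted p = 0.034), which failed without day 1 replicate 1, 3 or 4 or day 7 replicate 3 or 4 (falls of 1.97 to 2.85, adjusted p = 0.064 to 0.103). None of 31 lysosomal genes moved by at least 1, although 5 passed the test upward, and 2 fell by at least 1 without day 7 replicate 2. The list levels were 11.46 to 11.80 on day 1 and 11.15 to 12.11 on day 7, against 9.67 to 10.16 in sham cord. Of 13 MHC class II genes 1 fell by less than 1 and none rose, and 2 fell by at least 1 without day 1 replicate 3 or day 7 replicate 2.

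Of 15 homeostatic microglial genes 1 rose by at least 1, 3 rose by less and none fell. Tmem119, a surface protein of resident microglia, read 7.5, 7.7, 6.6 and 7.5 on day 1 and 8.8, 8.3, 9.4 and 9.0 on day 7. It rose by 1.57 (SE 0.40, adjusted p = 0.014), and without day 7 replicate 3 it no longer passed (change 1.39, adjusted p = 0.0529). The purinergic receptor P2ry12 did not pass the test (change 0.78, adjusted p = 0.053). Among 33 genes of T, B and NK cells 1 rose by at least 1, 1 fell by at least 1 and 6 more fell by less. The riser was Cd4, which in rats is also carried by macrophages, with values of 5.7, 5.3, 5.4 and 5.3 and then 6.9, 7.7, 6.3 and 7.5 (change 1.67, adjusted p = 0.0098). The one that fell was Il2rg, the common cytokine receptor chain, at 6.2, 5.1, 6.3 and 7.3 and 3.5, 5.8, 2.6 and 2.6 (change -2.57, adjusted p = 0.0056). Cd8a overlapped between the days (change -0.80, adjusted p = 0.4).

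A part of the interferon-stimulated genes rose. Type I interferons switch on genes that block virus replication, and the same genes respond to interferons in sterile injury. Of 36 measured members 9 rose by at least 1, 10 passed in all and none fell, with a median change of 0.57. The 9 became 6 without day 1 replicate 1 or day 7 replicate 1 or 4. The list members Irf1 (change 0.26, adjusted p = 0.68) and Irf8 (change 0.08, adjusted p = 0.91) did not pass. The list averaged 7.34, 7.07, 6.86 and 7.59 on day 1 replicates 1 to 4 and 8.29, 8.33, 7.23 and 8.56 on day 7 replicates 1 to 4. Day 7 replicate 3 was the low array of its group and lay within the day 1 range. The fit of the 8 arrays alone called 1 member, Mx2.

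Isg15, a ubiquitin-like protein attached to other proteins, read 6.1, 5.0, 4.2 and 5.8 on day 1 and 9.5, 8.7, 7.7 and 10.3 on day 7. It rose by 3.79 (SE 0.75, adjusted p = 0.0029) without overlap. The antiviral GTPase Mx1 went from 6.8, 5.9, 7.2 and 8.0 to 11.1, 10.9, 9.3 and 11.5 (change 3.69, adjusted p = 0.0017). Mx2, its paralog, went from 6.7, 7.7, 6.4 and 7.2 to 10.3, 9.3, 9.6 and 10.7, a rise of 3.00 (SE 0.43, adjusted p = 0.0002). Mx2 passed in the 8 arrays alone as well (adjusted p = 0.035). The paralogs have separate probe sets, and cross-hybridization between them was not tested. In all 3 genes the 2 days did not overlap. Irf7, the transcription factor that amplifies the response, rose by 2.46 (SE 0.58, adjusted p = 0.0093), from 7.2, 7.0, 5.7 and 8.7 to 9.6, 9.7, 8.6 and 10.7. Oas1a, which makes the activator of RNase L, rose by 2.67 (SE 0.58, adjusted p = 0.0053), and its day 7 values were 8.5, 8.4, 5.8 and 8.7. Cxcl10, a chemokine that interferons induce, lay at its floor on day 1 (2.1, 2.4, 2.1 and 2.6) and was measured at 6.8, 5.9, 3.6 and 8.6 on day 7. The rise of 3.94 (SE 1.15, adjusted p = 0.027) did not pass without day 1 replicate 1 or 4 or without day 7 replicate 1 or 4, with adjusted p values of 0.0557 to 0.0863 and changes of 3.16 to 4.04. Ifit3, another induced antiviral protein, rose by 2.49 (SE 0.75, adjusted p = 0.03), and it failed without the same 4 arrays (adjusted p = 0.0655 to 0.0908, changes of 2.05 to 2.50).

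The interferon-stimulated response element joins a pair of GAAA repeats, and it was searched as GAAANNGAAA, a motif added after the values were seen. The promoters of Oas1a, Ifit3 and Irf7 are shown because they hold it and these genes rose. Build, length and direction are as above, and capitals mark the matches, on the strand shown or as the reverse complement.
Oas1a (chr12:41330356-41330495, plus strand): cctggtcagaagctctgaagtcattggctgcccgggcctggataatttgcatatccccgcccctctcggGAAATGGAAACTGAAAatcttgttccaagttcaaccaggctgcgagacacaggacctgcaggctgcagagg
Ifit3 (chr1:241527216-241527355, plus strand): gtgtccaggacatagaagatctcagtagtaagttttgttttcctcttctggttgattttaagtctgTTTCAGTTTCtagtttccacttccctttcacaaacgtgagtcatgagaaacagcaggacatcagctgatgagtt
Irf7 (chr1:205799994-205800133, minus strand): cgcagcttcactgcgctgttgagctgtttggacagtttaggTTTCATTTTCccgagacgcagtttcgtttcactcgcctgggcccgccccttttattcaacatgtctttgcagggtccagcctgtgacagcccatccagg
In Oas1a a pair of matches overlap and share 4 bases. The motif occurred in 20 of 29 list members with a promoter sequence (69.0%) and in 5 of the 6 of them that rose by at least 1 (83.3%), against 3.77% of all promoters.

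The complement system tags debris for phagocytes. Of its 22 genes 3 rose and 3 fell by at least 1, and 3 more fell by less. The risers became 5 without day 1 replicate 2, and the fallers 1 without day 1 replicate 4 or day 7 replicate 1 or 3. C3, the central component, had values of 4.1, 6.8, 3.8 and 5.5 on day 1 and 9.6, 9.6, 11.7 and 11.7 on day 7. It rose by 5.57 (SE 0.63, adjusted p = 1.6e-05), passed in the 8 arrays alone (adjusted p = 0.042) and had a sham mean of 11.03, above every day 1 array. The protease C1s rose by 1.60 (SE 0.40, adjusted p = 0.012), and it did not pass without day 1 replicate 1 (change 1.43, adjusted p = 0.0504). Clusterin (Clu), a chaperone that restrains the terminal complex, rose by 1.34 (SE 0.32, adjusted p = 0.0088), and its other probe set changed by 0.26. The receptor C5ar1 on myeloid cells went the other way, from 11.3, 10.1, 10.1 and 11.1 to 8.5, 10.1, 5.6 and 7.4 (change -2.75, adjusted p = 0.0089). The recognition subunit C1qa was high throughout, at 12.9 to 13.3 and 13.2 to 13.9, and did not pass (adjusted p = 0.06).

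Many immediate early genes, which cells switch on within minutes of a stimulus, fell. Of 38 immediate early genes 12 fell by at least 1, 17 passed in all and none rose, with a median change of -0.87. The 12 became 7 without day 1 replicate 1 or day 7 replicate 3. The list averaged 7.46 to 8.23 on the day 1 arrays, 6.77 to 7.11 on the day 7 arrays and 5.80 to 6.39 in sham cord. Fosl1 was measured on all 4 day 1 arrays (6.3, 6.7, 6.1 and 5.9) and lay at its floor of 1.7 on every day 7 and sham array. The Fosl1 change of -4.57 (SE 0.25, adjusted p = 8.8e-10) also passed with the 8 arrays alone (adjusted p = 0.00036). So did that of Myc, which drives growth and division (change -1.59, adjusted p = 0.023 in the 8 arrays). Socs3, a feedback inhibitor of cytokine signaling, read 7.2, 7.1, 6.0 and 6.1 and 4.0, 4.0, 4.0 and 5.1 (change -2.30, adjusted p = 0.00069). The transcription factor Csrnp1 fell by 1.66, the phosphatase Dusp5 by 1.97 and the small Maf factor Maff by 1.81, each with an adjusted p under 0.05 and without overlap between the days. Atf3, a marker of injured neurons, had values of 9.6 to 10.3 on day 1 and 8.5 to 9.8 on day 7 and did not pass (adjusted p = 0.15). TGACTCA, the AP-1 site, was in none of the 28 immediate early promoters available and in 4.53% of all promoters.

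In the heat shock list 1 of 27 genes fell by at least 1, 6 fell by less and 1 rose by less. The large change was that of Hspa1a, with 10.5, 9.4, 10.2 and 10.1 on day 1 and 7.0, 6.2, 5.9 and 6.0 on day 7. It fell by 3.77 (SE 0.53, adjusted p = 0.00015), to below its sham mean of 7.6, and passed with the 8 arrays alone (adjusted p = 0.0091). The mitochondrial chaperonin Hspd1 fell by 0.54 (SE 0.11, adjusted p = 0.0036), a small change with non-overlapping values (12.1 to 12.4 against 11.6 to 11.9). GAANNTTC, the core of the heat shock element, was in 13 of 23 promoters of the list (56.5%) and in 8.34% of all. Of 31 genes of the unfolded protein and amino acid response 2 fell by at least 1, 4 fell by less and 3 rose by less. Chac1, which degrades glutathione, went from 8.2, 7.2, 6.8 and 6.8 to 4.7, 4.0, 5.4 and 5.3 (change -2.41, adjusted p = 0.00018). The transcription factor Cebpb fell by 1.37 (SE 0.32, adjusted p = 0.008).

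Of 31 antioxidant and metallothionein genes 3 fell by at least 1, 8 fell by less, 1 rose by at least 1 and 1 rose by less. The 3 became 1 without day 7 replicate 3, and the riser was lost without day 1 replicate 1 or day 7 replicate 1 or 3 and became 2 without day 1 replicate 2 or day 7 replicate 2. Srxn1, a sulfiredoxin under the control of NRF2, read 9.7, 9.7, 9.5 and 9.6 and 7.4, 7.2, 7.2 and 7.5, with little spread within either day. It fell by 2.27 (SE 0.26, adjusted p = 1.7e-05) and passed with the 8 arrays alone (adjusted p = 0.00026), and the changes of its other 2 probe sets were -2.73 and -0.07. Heme oxygenase Hmox1, which degrades heme from lysed blood, went from 14.2, 13.7, 13.6 and 14.04 to 11.8, 12.6, 10.4 and 11.4 (change -2.35, adjusted p = 0.012), and without day 7 replicate 3 it stood at an adjusted p of 0.0501 (change -1.95). Gclm, a subunit of the enzyme that starts glutathione synthesis, fell by 0.68 (SE 0.13, adjusted p = 0.002). In the hypoxia and glycolysis list 3 of 36 fell by at least 1, 11 fell by less, 1 rose by at least 1 and 1 rose by less. The 3 became 1 without day 7 replicate 3, and the riser was lost without day 1 replicate 1 or 4 or day 7 replicate 3 or 4 and became 2 without day 7 replicate 2. The lactate exporter Slc16a3 fell by 2.70 and lactate dehydrogenase Ldha by 1.17. Day 7 replicate 2 overlapped the day 1 arrays in both.

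Transcripts of red cells were among those that fell. In the list of iron, heme and red cell genes 6 of 23 fell by at least 1, 1 fell by less and 1 rose by less. Alas2, the erythroid enzyme that starts heme synthesis, had the largest fall of the genes named here, from 10.4, 10.4, 6.4 and 12.3 on day 1 to 3.5, 3.2, 3.1 and 3.4 on day 7 (change -6.56, SE 0.95, adjusted p = 0.0002). Beta-globin (Hbb) read 15.3, 15.1, 14.1 and 15.5 and 13.1, 12.3, 13.1 and 13.1, a fall of 2.14 (SE 0.31, adjusted p = 0.00024) that passed with the 8 arrays alone (adjusted p = 0.049). Alpha-globin Hba-a3 fell by 3.65 (SE 0.57, adjusted p = 0.00042). On the sham arrays Hbb averaged 14.1 and Alas2 6.0, and the part of residual blood in these changes was not tested. Globin sequences are alike, and cross-hybridization between them was not tested. Haptoglobin (Hp), which binds free hemoglobin, fell by 2.44 (SE 0.39, adjusted p = 0.00047), with day 1 replicate 4 at 7.3 and the other day 1 arrays at 4.6 to 5.0.

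**Figure D3:**
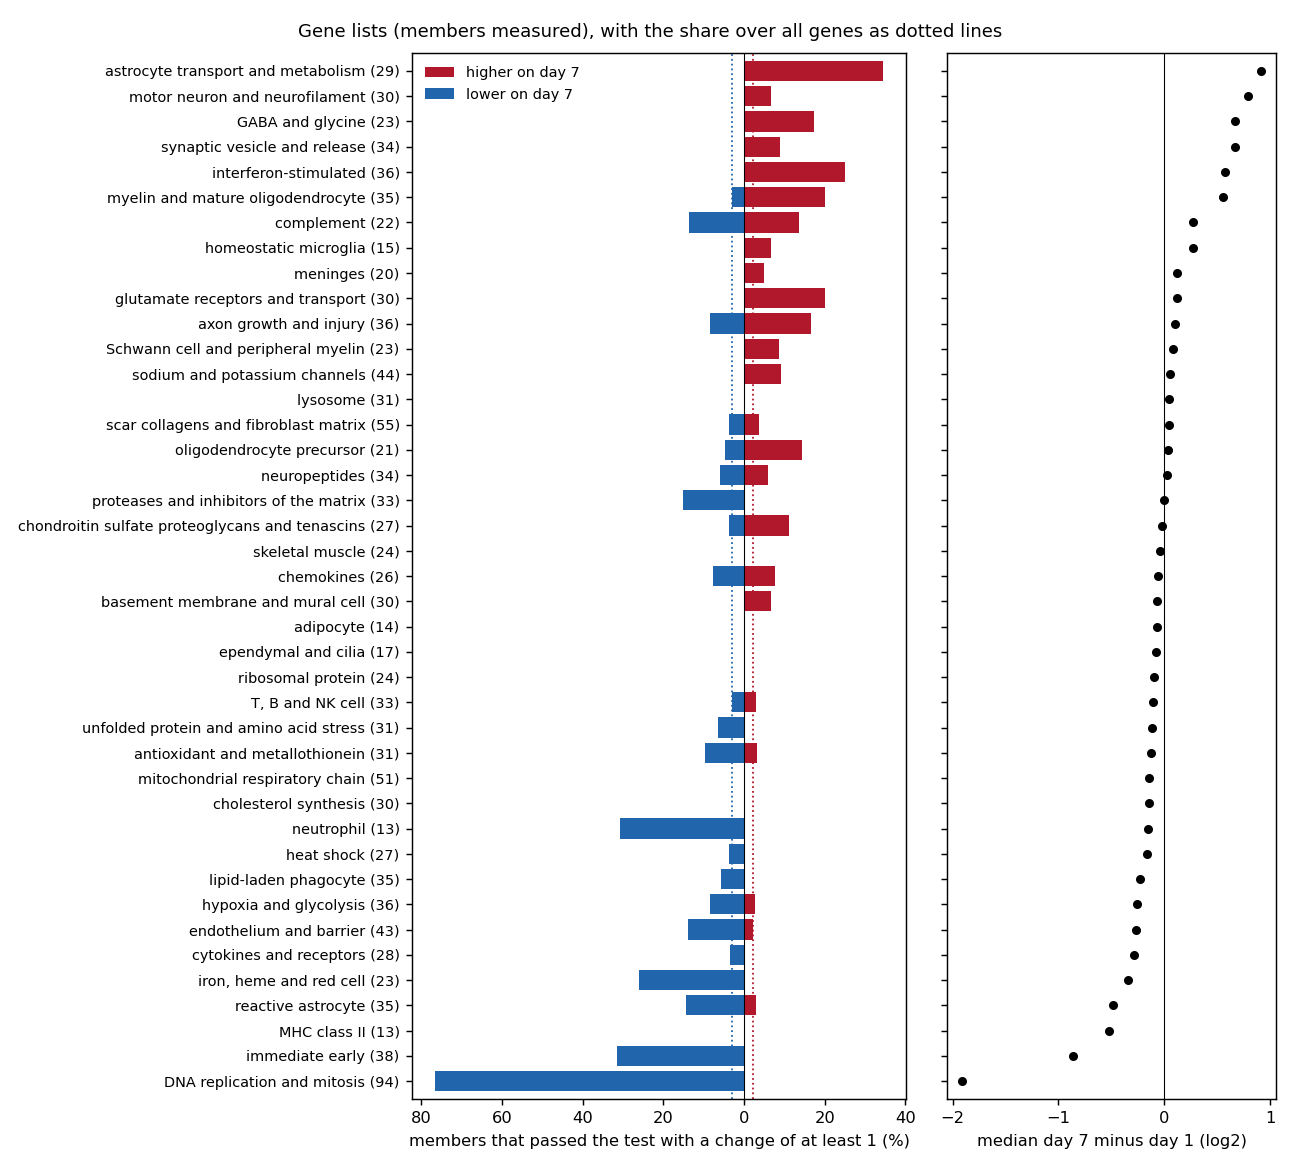
The left panel gives, for 41 gene lists with the number measured in parentheses, the percent of members called with a change of at least 1 (red, higher on day 7; blue, lower), and dotted lines mark 2.17% and 2.89%, the shares over all genes. The right panel gives the median log2 change of the list, from -1.91 for DNA replication and mitosis to 0.92 for astrocyte transport and metabolism.

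Astrocyte genes of transport and metabolism rose in part. Astrocytes take up transmitters, buffer potassium and water, and feed neurons, and these functions mark the resting cell. Of 29 genes 10 rose by at least 1, 13 passed in all and none fell, with a median change of 0.92. The 8 arrays alone called none of them. The 10 became 6 without day 1 replicate 1 or 4 or day 7 replicate 3 or 4, and 17 without day 7 replicate 2. The list averaged 7.73, 8.75, 8.71 and 7.56 on day 1 replicates 1 to 4, 9.05, 8.50, 10.003 and 9.59 on day 7 replicates 1 to 4 and 10.22 to 10.71 in sham cord. Day 1 replicates 1 and 4 were the low arrays and day 7 replicates 3 and 4 the high ones. Without day 1 replicates 1 and 4 together 1 member rose by at least 1, and without day 7 replicates 1 and 3 together 1 did.

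Ntsr2, an astrocytic neurotensin receptor, read 6.2, 7.7, 8.6 and 4.2 and 9.95, 8.8, 11.3 and 11.1 (change 3.64, adjusted p = 0.0017). Agt, angiotensinogen, which is outside the list, went from 5.3, 7.7, 7.4 and 4.5 to 9.4, 8.7, 11.1 and 10.5, a rise of 3.66 (SE 0.60, adjusted p = 0.00061). Both remained under their sham means of 11.5 and 12.1. The water channel of the endfeet, Aqp4, had values of 11.7, 12.98, 13.4 and 11.5 and 13.7, 12.9, 14.6 and 14.2. It rose by 1.46 (SE 0.35, adjusted p = 0.011), with day 7 replicate 2 within the day 1 range. Mlc1, a membrane protein of the same endfeet, rose by 1.77, the acyl-CoA synthetase Acsbg1 by 1.78 and the peptide carrier Slc15a2 by 3.28. Itih3, which links hyaluronan in the matrix and is outside the list too, showed the split of the day 1 arrays most plainly, at 3.2, 8.8, 8.9 and 3.4, against 10.6, 10.1, 12.8 and 11.8 on day 7 (change 5.25, adjusted p = 0.0025).

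Reactive astrocyte genes moved both ways. Of 35 members 5 fell by at least 1, 3 fell by less and 3 rose, 1 of them by at least 1. The 5 became 3 without day 1 replicate 1 or day 7 replicate 3, and the riser was lost without day 1 replicate 1 or 3 or day 7 replicate 1, 3 or 4 and became 2 without day 1 replicate 2. Gfap, the intermediate filament of astrocytes, was near the top of the scale in every group, with 14.1, 14.4, 14.4 and 13.8 on day 1 and 14.6, 14.2, 14.8 and 14.9 on day 7. Its rise of 0.44 (SE 0.14, adjusted p = 0.037) failed in 5 of the 8 fits that left out an array (without day 1 replicate 1 or 4, or day 7 replicate 1, 3 or 4), with changes of 0.30 to 0.46 and adjusted p values of 0.0624 to 0.116. Vimentin (Vim) did not pass (change -0.16, adjusted p = 0.5). Tm4sf1, a tetraspanin-like membrane protein, fell by 1.34 (SE 0.24, adjusted p = 0.0011), from 9.2, 8.9, 8.7 and 9.6 to 7.7, 7.8, 7.7 and 7.8. Tnfrsf12a, the receptor for TWEAK, fell by 1.15 (SE 0.20, adjusted p = 0.0011).

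Genes of myelin and mature oligodendrocytes rose in part. Of 35 members 7 rose by at least 1, 8 rose by less and 1 fell, by at least 1. The 1 that fell was not called by at least 1 in 7 of the 8 fits that left out an array (all but that without day 1 replicate 3). The list averaged 9.41 to 10.20 on day 1, 9.91 to 10.83 on day 7 and 10.86 to 11.01 in sham cord. The count of 7 was 3 without day 1 replicate 1 or without day 1 replicate 4, 4 without day 7 replicate 3 and 11 without day 7 replicate 2. Nfasc, the neurofascin that builds nodes of Ranvier and the glial side of their junctions, read 7.9, 8.5, 8.9 and 7.1 on day 1 and 10.9, 10.2, 11.2 and 11.04 on day 7. It rose by 2.71 (SE 0.31, adjusted p = 1.7e-05), to above its sham mean of 9.7, and passed with the 8 arrays alone (adjusted p = 0.042). The array has 5 probe sets for Nfasc, and the changes of the other 4 ran from 0.11 to 3.07. Enpp6, a marker of newly forming oligodendrocytes, went from 7.1, 7.0, 8.1 and 7.0 to 9.0, 8.3, 9.5 and 9.8, a rise of 1.82 (SE 0.33, adjusted p = 0.0013), with a sham mean of 8.5. Tspan2, a tetraspanin of early myelin, rose by 1.63 (SE 0.29, adjusted p = 0.0012). Myelin basic protein (Mbp), the main protein of compact myelin, read 14.9, 15.01, 14.95 and 14.8 and 15.1, 14.9, 15.2 and 15.3 (change 0.19, adjusted p = 0.033), a small difference near the top of the scale. It failed without day 1 replicate 1 or 4 and without day 7 replicate 1, 3 or 4 (changes of 0.15 to 0.21, adjusted p = 0.0514 to 0.102).

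Among 21 genes of oligodendrocyte precursors 3 rose and 1 fell by at least 1, and 2 rose and 1 fell by less. All 3 risers are shared with the proteoglycan list that follows and are its 3 risers too. The list members Pdgfra (change -0.15, adjusted p = 0.78), Olig1 (change -0.16, adjusted p = 0.66) and Cspg4 (change -0.74, adjusted p = 0.067) did not pass. Sox11, a transcription factor of immature neural cells, fell by 1.70 (SE 0.29, adjusted p = 0.00086), from 4.9, 5.1, 4.3 and 4.3 to 2.8, 2.8, 3.4 and 2.8, and it passed with the 8 arrays alone (adjusted p = 0.037). In the list of chondroitin sulfate proteoglycans and tenascins, whose members surround axons and restrain their growth, 3 of 27 rose and 1 fell by at least 1, and 3 fell by less. Brevican (Bcan) went from 9.3, 8.7, 9.6 and 8.2 to 11.1, 10.4, 11.6 and 11.8, a rise of 2.29 (SE 0.28, adjusted p = 4e-05), while its other probe set did not move (0.00). Tenascin R (Tnr) went from 8.0, 8.7, 8.8 and 8.4 to 9.9, 9.7, 10.2 and 10.3, a rise of 1.55 (SE 0.18, adjusted p = 2e-05) that passed with the 8 arrays alone (adjusted p = 0.035). Both day 7 means lay above the sham means of 10.8 and 9.3. The member that fell was the cell surface proteoglycan Sdc1, at 9.8, 7.4, 7.6 and 8.9 and 6.0, 7.8, 3.9 and 4.1 (change -2.97, adjusted p = 0.007). For Schwann cells and peripheral myelin 2 of 23 rose by at least 1, 2 rose by less and 2 fell by less. The 2 risers became 1 without day 1 replicate 4 or day 7 replicate 3, and 1 member fell by at least 1 without day 1 replicate 3 or day 7 replicate 2. L1cam, 1 of the 2 risers, is also counted among the axon growth genes. The list members Pmp22 (change 0.29), Prx (0.08) and Pmp2 (0.22) did not pass.

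The motor neuron and synaptic vesicle lists had higher mean levels on day 7, but few of their members passed. Of 30 motor neuron and neurofilament genes 2 rose by at least 1, 2 rose by less and 1 fell by less, with a median change of 0.79. The 2 risers became 0 without day 1 replicate 1 or 4 or day 7 replicate 3 or 4, 1 without day 7 replicate 1 and 6 without day 1 replicate 2 or day 7 replicate 2. For 34 synaptic vesicle genes the counts were 3, 1 and 2, with a median of 0.67. The 3 risers became 1 without day 1 replicate 4 or day 7 replicate 3, 5 without day 7 replicate 2 and 10 without day 1 replicate 2. The 8 arrays alone called no member of either list by at least 1. The motor neuron list averaged 7.11, 7.63, 7.50 and 6.49 on day 1 replicates 1 to 4, 7.47, 7.34, 9.27 and 7.94 on day 7 replicates 1 to 4 and 9.999 to 10.22 in sham cord. Day 7 replicate 3 lay far above the rest of its group, and day 7 replicates 1 and 2 lay within the day 1 range. Snap25 read 9.7, 11.7, 11.5 and 8.7 and 11.4, 11.1, 13.5 and 12.1 (change 1.60, adjusted p = 0.076). The neurofilament Nefl read 9.1, 10.6, 10.1 and 7.8 and 9.8, 9.7, 13.3 and 10.8 (change 1.49, adjusted p = 0.16). The sodium channel Scn1a read 2.8, 3.7, 5.8 and 2.7 and 4.7, 4.8, 9.4 and 6.8 (change 2.68, adjusted p = 0.079). None of these 3 passed, and each has a sham mean above all 8 arrays (14.3, 14.5 and 11.4).

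Some neuronal genes passed. Calb1, a calcium buffer of interneurons and sensory laminae, went from 4.9, 7.4, 6.9 and 3.5 to 8.9, 7.5, 9.3 and 9.2 (change 3.07, adjusted p = 0.0028). Nrn1, neuritin, went from 2.9, 5.6, 5.2 and 3.8 to 7.1, 6.9, 8.6 and 7.9 (change 3.25, adjusted p = 0.0031). The glycine receptor subunit Glrb rose by 1.57 (SE 0.28, adjusted p = 0.0011), while its other probe sets changed by -0.39 and 2.53. Sncg, a synuclein of motor and sensory neurons, rose by 2.00 (SE 0.37, adjusted p = 0.0017). In the lists, 4 of 23 GABA and glycine genes, 6 of 30 glutamate genes and 4 of 44 sodium and potassium channel genes rose by at least 1 and none fell by that much, and the 8 arrays alone called none of them. The median change was 0.67 in the GABA and glycine list, but only 0.12 in the glutamate list and 0.05 in the channel list. The 4 of the GABA and glycine list became 2 without day 1 replicate 1 or 4 or day 7 replicate 3 or 4, and 8 without day 7 replicate 2. The 6 of the glutamate list became 0 without day 1 replicate 1 or 4 or day 7 replicate 3, and 2 without day 7 replicate 4. The 4 of the channel list became 0 without the same 3 arrays, 1 without day 7 replicate 4, 2 without day 7 replicate 1 and 7 without day 1 replicate 2. Among these and the other neuronal lists, Ret, a receptor of motor neurons (change 1.70), the vesicle protein Syn2 (1.20), the glutamate receptor Gria1 (1.44), the scaffold Shank1 (1.79) and the potassium channel Kcna2 (1.73) all failed without day 1 replicate 1, day 1 replicate 4, day 7 replicate 3 or day 7 replicate 4 (changes of 0.862 to 1.75, adjusted p of 0.0699 to 0.155). Ret, Syn2 and Gria1 failed without day 7 replicate 1 as well (adjusted p of 0.052 to 0.0698).

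A pair of neuropeptide genes that neurons switch on after injury fell. Galanin (Gal), which axotomized neurons make, read 9.7, 8.1, 7.8 and 8.4 and 4.8, 4.8, 7.1 and 6.6 (change -2.67, adjusted p = 0.007). Vgf, a precursor of neuroendocrine peptides, went from 12.02, 11.7, 11.6 and 11.3 to 9.4, 9.0, 10.4 and 9.9, a fall of 1.99 (SE 0.25, adjusted p = 4.9e-05) that passed with the 8 arrays alone (adjusted p = 0.046). These were the 2 of 34 neuropeptide genes that fell by at least 1, while 2 others rose by at least 1, and the median change of the list was 0.03. The risers became 0 without day 1 replicate 1 or 4 or day 7 replicate 3, 1 without day 7 replicate 4 and 5 without day 1 replicate 2. Axon growth genes moved in both directions, with 6 of 36 rising and 3 falling by at least 1. The 6 became 3 without day 7 replicate 3, and the 8 arrays alone called 0 risers and 1 faller by at least 1. Dpysl4, a collapsin response mediator, rose from 5.0, 5.3, 4.9 and 4.3 to 7.5, 6.3, 6.7 and 8.2 (change 2.29, adjusted p = 0.00025), and its relative Dpysl3 fell by 1.18 (SE 0.22, adjusted p = 0.0016), while the other Dpysl3 probe set changed by -0.05. The sham mean of Dpysl4 was 3.8, below all 8 arrays. The adhesion molecule L1cam rose by 1.45 and the BDNF receptor Ntrk2 by 1.27, with its other 4 probe sets at -0.05 to 2.50. Gap43, the growth cone protein, did not pass (change -0.30, adjusted p = 0.39).

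Of 43 endothelial and barrier genes 6 fell by at least 1, 4 fell by less, 1 rose by at least 1 and 1 rose by less. The 6 became 3 without day 1 replicate 4 or day 7 replicate 4. With the 8 arrays alone no member fell by at least 1, and Vcam1 was the 1 that rose by at least 1. Ecscr, an endothelial surface protein outside the list, went from 7.6, 8.2, 7.1 and 9.1 to 4.3, 5.0, 4.0 and 3.9, a fall of 3.71 (SE 0.35, adjusted p = 1.2e-06), and it passed with the 8 arrays alone (adjusted p = 0.027). Von Willebrand factor (Vwf) fell by 1.89 (SE 0.34, adjusted p = 0.0013), from 9.6, 8.6, 8.5 and 10.4 to 7.3, 7.9, 7.3 and 7.1. Pecam1, the junctional marker of endothelium, fell by 0.96 (SE 0.18, adjusted p = 0.0018). The tight junction gene Cldn5 did not pass (change -0.42, adjusted p = 0.17). The riser was Vcam1, an adhesion molecule of activated endothelium and also of astrocytes, with 9.0, 9.3, 8.8 and 9.1 on day 1 and 10.2, 10.3, 10.8 and 10.7 on day 7. It rose by 1.49 (SE 0.15, adjusted p = 5.1e-06) and passed with the 8 arrays alone (adjusted p = 0.022).

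Genes of the fibrotic scar differed little between the days. Of 55 scar collagen and fibroblast genes 2 rose and 2 fell by at least 1, 1 rose and 2 fell by less, and the median change was 0.04. The 2 risers became 1 without day 1 replicate 1 or 3 or day 7 replicate 2. The 2 fallers became 5 without day 1 replicate 3, 4 without day 7 replicate 2 and 1 without any other array but day 1 replicate 2. Col1a1, the main fibrillar collagen, read 12.6, 12.7, 10.7 and 12.99 on day 1 and 13.5, 14.2, 11.8 and 11.7 on day 7, against a sham mean of 8.8, and did not pass (adjusted p = 0.58). Fmod, a small proteoglycan that binds collagen, rose by 3.11 (SE 0.74, adjusted p = 0.0097), with 1 day 1 array (replicate 2, 5.7) above the lowest day 7 array (replicate 2, 5.2). Sparc, a collagen-binding glycoprotein, rose by 1.01 (SE 0.17, adjusted p = 0.0006), and its day 7 values of 13.3, 13.4, 13.3 and 13.3 spread over less than those of day 1 (12.1, 12.6, 11.99 and 12.5). It passed in the 8 arrays alone (adjusted p = 0.036). Of 33 proteases and inhibitors 5 fell by at least 1, 2 fell by less and 1 rose by less, and the 5 became 3 without day 1 replicate 4. Adamts9 fell by 1.98 (SE 0.35, adjusted p = 0.0012), and its other probe set changed by -0.06. Mmp3, stromelysin, fell by 1.60 (SE 0.43, adjusted p = 0.018) to its floor, and it failed without day 1 replicate 4 (change -1.45, adjusted p = 0.059). Igf2, which in the cord comes mainly from meninges and vessels, went from 6.1, 8.3, 3.7 and 7.1 to 10.4, 10.3, 9.3 and 9.4 (change 3.57, adjusted p = 0.0077), while its other 3 probe sets changed by -0.18 to -0.04. Rbp4, the retinol carrier of the same coverings, rose by 2.96 (SE 0.81, adjusted p = 0.021), and without day 1 replicate 1 or 3 or day 7 replicate 1 or 3 it failed (changes of 2.45 to 2.85, adjusted p = 0.0553 to 0.0853). The meningeal list averaged 5.66, 6.43, 4.77 and 5.99 on day 1 and 6.66, 6.11, 6.29 and 5.48 on day 7, so these markers differed between pieces within each day, and their part in these changes was not tested.

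Several of the largest rises were in genes outside these lists. Pnlip, pancreatic lipase, read 4.7, 6.8, 6.5 and 4.4 on day 1 and 11.2, 10.7, 11.2 and 11.7 on day 7. It rose by 5.60 (SE 0.54, adjusted p = 1.7e-06), to above its sham mean of 7.5, and it passed with the 8 arrays alone (adjusted p = 0.02). Casr, the calcium-sensing receptor, lay at its floor on day 1 (2.5, 2.4, 2.4 and 2.4) and was measured on all 4 day 7 arrays (7.6, 7.2, 7.3 and 8.7). The change of 5.28 (SE 0.37, adjusted p = 2.6e-08) passed with the 8 arrays alone (adjusted p = 0.0022), and the means of the other groups were 2.5 in sham cord, 2.4 on day 3, 3.5 on day 14 and 2.4 on day 56. No array outside day 7 read above 5.1. Tmem163, a zinc transporter, rose from 6.6, 6.2, 6.7 and 4.7 to 9.5, 8.4, 9.0 and 10.03 (change 3.18, adjusted p = 1.6e-05), while its other probe set changed by -0.05. Pnlip and Casr each have 1 probe set on this array and no other measurement here.

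Skeletal muscle transcripts marked 2 of the day 7 pieces. Acta1, skeletal actin, read 8.4, 3.5, 8.7 and 3.5 on day 7 and 2.9, 2.5, 2.8 and 2.7 on day 1, and the myosin light chains Myl11 and Myl1 read 8.3, 1.8, 7.3 and 1.7 and 7.4, 2.5, 7.2 and 2.5 on day 7, with 1.8 and 2.6 on average on day 1. Replicates 1 and 3 were the high arrays in all 3 genes, none of which passed the test. Of the 24 muscle genes 1 rose by less than 1, and 5 rose by at least 1 without day 7 replicate 2 and 1 without day 1 replicate 2 or day 7 replicate 4. The mean of the 24 muscle genes was 3.91, 2.95, 4.32 and 3.10 on day 7 and 3.004 to 3.11 on day 1. It was high outside these days as well, at 4.31 on day 14 replicate 4. Of 14 fat cell genes 1 fell by less than 1 and none rose, with list levels of 3.88 to 4.20 on day 1 and 3.59 to 4.14 on day 7. The part of the muscle RNA in other changes was not tested. Without day 7 replicates 1 and 3 together 85 genes were higher and 184 lower by at least 1. The counts were 52 and 171 without day 1 replicates 1 and 4, and 230 and 383 without day 7 replicates 2 and 3. Leaving out a pair of arrays thus lowered the counts in each case, and these counts cannot single out muscle RNA.

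Lists of basic functions moved little. None of 24 ribosomal protein genes, 51 genes of the respiratory chain, 30 of cholesterol synthesis or 17 of ependyma and cilia moved by at least 1, although without day 7 replicate 2 there were 3 cholesterol genes and 1 ependymal gene that rose by as much, without day 1 replicate 2 there was 1 cholesterol gene and without day 1 replicate 1 there was 1 ependymal gene. Of the respiratory chain genes 6 fell and 1 rose by less, and of the ribosomal genes 1 fell. Of the cholesterol genes 3 fell and 2 rose by less, and of the ependymal genes 2 rose. Among 30 genes of basement membrane and mural cells 2 rose by at least 1 and 2 fell by less, and the 2 risers became 0 without day 1 replicate 1 and 1 without day 1 replicate 3 or day 7 replicate 2 or 3. Of 20 meningeal genes Igf2 was the 1 that rose by at least 1, and 1 rose and 1 fell by less. The meningeal count became 2 without day 1 replicate 2 and 3 without day 7 replicate 2.

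The day 3 arrays were part of the main fit above, and their own comparisons share arrays with the one described here. Several lists stood apart on them from both days, but DNA replication and mitosis averaged 5.33 on day 3 and 5.46 on day 7. Over all genes 875 (6.15%) were higher and 813 (5.72%) lower by at least 1 on day 7 than on day 3, and 950 (6.68%) were higher and 1140 (8.02%) lower on day 3 than on day 1. For DNA replication and mitosis, 6 of 94 genes rose and 1 fell from day 3 to day 7, and 66 were lower on day 3 than on day 1. For immediate early genes 16 of 38 were lower on day 7 than on day 3 and 10 higher on day 3 than on day 1. For interferon-stimulated genes 19 of 36 were higher on day 7 than on day 3, and 13 were lower on day 3 than on day 1. For homeostatic microglia 11 of 15 were higher on day 7 than on day 3 and 10 were lower on day 3 than on day 1, and for scar matrix 28 of 55 were higher and 28 lower in the same order. For motor neuron and neurofilament genes 12 of 30 were lower on day 7 than on day 3, while 22 were higher on day 3 than on day 1.

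**Figure D4:**
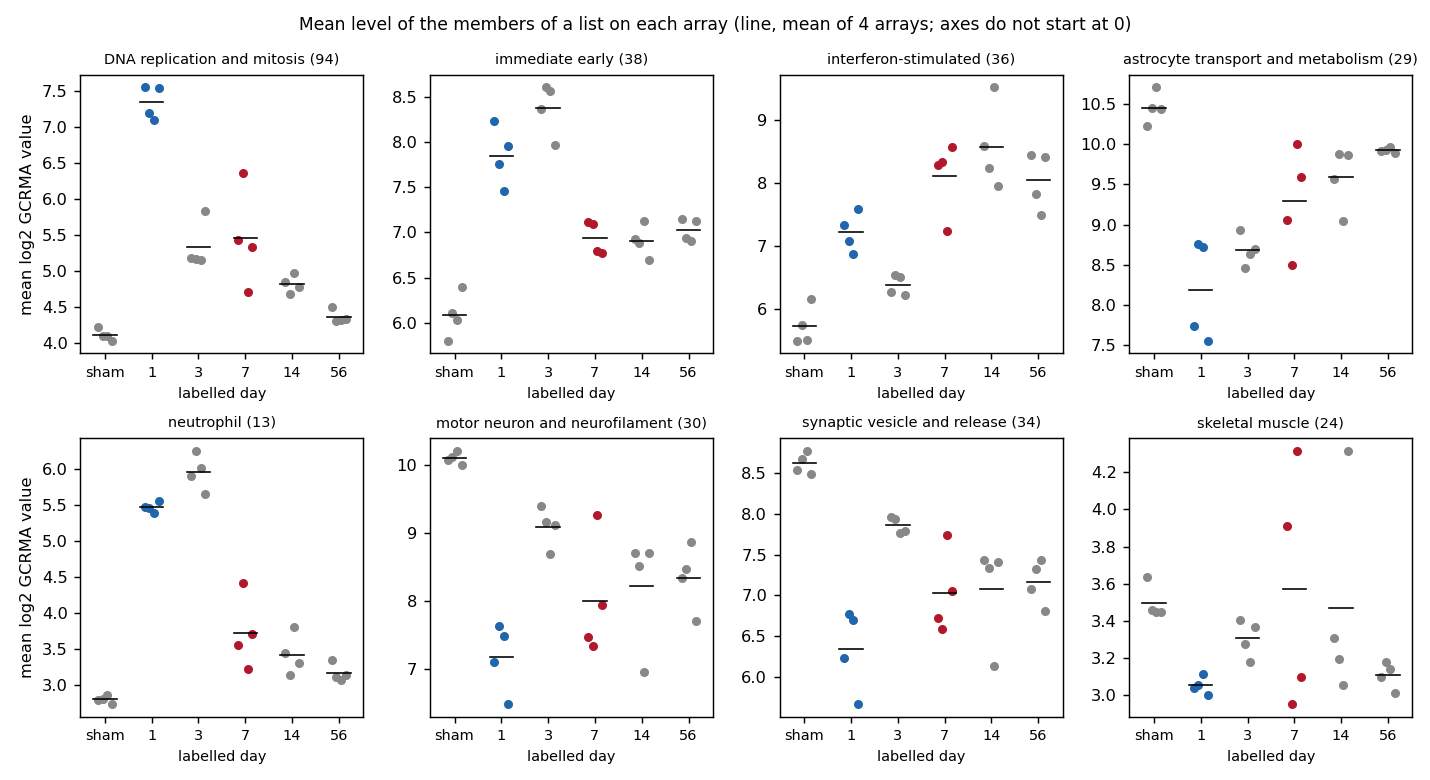
Each panel gives the mean log2 GCRMA value of the members of 1 list (number measured in parentheses) on every array, by labelled day, with day 1 in blue, day 7 in red, the other groups in gray and a line at the mean of 4 arrays; the y axes do not start at 0. The DNA replication and mitosis list is highest on day 1 (7.09 to 7.55), and the motor neuron list has 1 day 7 array far above the others of its group. In the skeletal muscle list 2 day 7 arrays stand out from their group (day 7 range 2.95 to 4.32), and so does day 14 replicate 4 (4.31).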

How the data were processed

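RNA of injured or sham-operated rat cord was measured on 24 one-color arrays, one rat to an array. The authors deposited log2 expression values made with GCRMA (affy 1.12.2, per the labels), which corrects background by probe sequence, quantile normalizes and summarizes probe sets. The methods state that arrays of different days were pre-processed apart. No genome build is named for the values. No scan dates were used. Depth has no meaning for arrays, and their number, 4 a group, limits the precision. No column was left without a sample (0 columns).

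Of 31099 probe sets, 57 were control probe sets, 20832 had 1 gene symbol in the platform annotation, 436 had several and 9831 had none. All 31099 were fitted in limma 3.58.1 (R 4.3.3) with a mean for each of 6 groups (residual df 18), moderated by eBayes. The day 7 minus day 1 p values were adjusted over the 20832 with 1 symbol by Benjamini-Hochberg at 0.05. The brightest probe set stands for a gene. Tables and figures were made in Python 3.11.15 (pandas 2.3.3, numpy 2.4.6, matplotlib 3.10.9). The fit was also run on simulated data in which a gene had the same spread in all groups. That setting cannot check the effect of the larger spread of day 1 and day 7.

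Members, gene lists and tests were chosen with earlier results of these data known. Of the genes on 41 lists, 1222 were measured and 176 were not analysed here. A rule gave 336 genes that could be named. In each direction it took 15 called genes without overlap and with a mean of at least 5 on 1 of the days, by size of change. From each list it took up to 6 members by size of change and the first 3 measured. The text names 121 genes, of which 104 were called, so called genes prevail among those named. Not counted there are Pdgfra, Olig1, Cspg4, Pmp22, Prx, Pmp2, Irf1 and Irf8, uncalled members given only beside a list count. Members of the rule left unnamed include Il1b, Ccl3, Chat and Gad1, which were not called, and Rsad2, which was. Myc, Syn2 and the 3 mitosis genes named for their promoters were added outside the rule. Replicate numbers did not pair the rats: the deviations of same-numbered day 1 and day 7 arrays correlated at 0.085, -0.44, 0.46 and -0.35. Promoter sequences came from RefSeq (GRCr8). Alternatives were other sets of arrays, moderation, normalization, a filter on dim probe sets, array weights, the mean of probe sets, the replicate block, other call rules and left-out arrays. Leaving out day 7 replicates 1 and 3 together, or day 1 replicates 1 and 4 together, was chosen after seeing the data.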

Additional observations from a re-analysis of the deposited data

Results flagged for a closer look

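Among the 121 genes counted as named, 19 of 242 groups of 4 arrays (7.85%) held 1 array apart from the other 3 by Dixon's test. Chance alone gives about 5% for normally spread values, which values near the GCRMA floor need not be. The test sets the gap against the range of the 4 values. A small gap can therefore pass where the other 3 are nearly equal, as in S100a8 (range 0.36) and Napsa (range 0.42) on day 7. Day 7 replicate 2 was the array apart in 10 of the 19. It was high in Bub1b (4.47, others 2.40 to 2.58), Espl1 (5.31, others 3.51 to 3.59), Knstrn (6.55, others 2.89 to 3.27), Plk1 (4.87, others 2.26 to 2.50), S100a9 (6.74, others 4.19 to 4.25), S100a8 (4.32, others 3.96 to 3.99), Fcnb (5.16, others 1.77 to 2.16), Arg1 (9.59, others 4.55 to 5.24) and Napsa (1.93, others at 1.51). It was low in Hbb, with 12.3 against 13.1 on the other 3 arrays. All 9 genes fell from day 1 to day 7, so a high day 7 value in them could only lie toward the day 1 arrays. The cause was not tested.

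Day 7 replicate 3 was low in Oas1a (5.85, others 8.37 to 8.73) and high in Csrnp1 (5.40, others 4.77 to 4.86) and Sox11 (3.43, others at 2.78). Day 7 replicate 4 was high in Socs3 (5.12, others 3.97 to 4.01), and day 7 replicate 1 in Adamts9 (5.09, others 4.41 to 4.46). Among the day 1 arrays, replicate 2 was low in Cd8a (8.49, others 9.02 to 9.11) and high in Fmod (5.71, others 3.86 to 4.07), replicate 3 was high in Enpp6 (8.09, others 7.0 to 7.1) and replicate 4 in Hp (7.27, others 4.59 to 4.97).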

How the results depend on the processing

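Of 104 called genes named in the text, 24 kept the call and the direction under all 22 alternatives, 39 lost it in the fit of the 8 arrays alone and under no other, and 41 lost it under another alternative. The counts over all genes moved more. Genes called higher (875 in the main fit) and lower (2134) numbered 49 and 115 with the 8 arrays alone and 1526 and 4743 with array quality weights. They numbered 354 to 1237 higher and 827 to 3758 lower with 1 array left out, 539 and 1066 without day 7 replicates 2 and 3, 175 and 298 without day 7 replicates 1 and 3, and 112 and 321 without day 1 replicates 1 and 4. Genes called lower numbered 3304 without the day 3 arrays, 3582 with trend moderation and 3622 by a t-test without moderation. The number was 1359 when dim probe sets were left out and 1227 when arrays were centred on their medians. Of all called genes 29.1% were higher in the main fit, 42.6% once arrays were centred and 40.4% once dim probe sets were left out. A change of at least 1 gave 309 and 411, the study's rule 183 and 239, and the t-test without moderation or adjustment 1495 and 4861. The unadjusted p of the main fit was under 0.05 for 6290 genes. With a change of at least 1, genes numbered 19 higher and 65 lower with the 8 arrays alone, 85 and 184 without day 7 replicates 1 and 3, and 52 and 171 without day 1 replicates 1 and 4. Those higher numbered 524 with weights and 145 to 503 with 1 array left out. In the fit of the 8 arrays alone the lists held 12 mitosis, 2 immediate early, 1 interferon-stimulated, 0 astrocyte and 1 myelin genes. Immediate early genes lower by at least 1 (12) numbered 7 to 18 with 1 array left out, 6 without day 7 replicates 2 and 3, 7 without day 7 replicates 1 and 3 and 7 without day 1 replicates 1 and 4. Astrocyte genes (10) numbered 16 with weights, 6 to 17 with 1 array left out and 1 under each of the last pair of settings. Myelin genes (7) numbered 12 with weights, 3 to 11 with 1 array left out, 3 without day 7 replicates 1 and 3 and 2 without day 1 replicates 1 and 4. Myl1 and Myl11, which did not pass, changed by -0.0699 and -0.0609 without day 7 replicates 1 and 3, the arrays with muscle transcripts. The replicate block gave 790 higher and 1941 lower genes, and only Gfap (adjusted p = 0.0521) and Shank1 (0.0561) lost the call among named genes. Quantile normalization ended the calls of Gfap, Kcna2, Mbp and Shank1 (adjusted p of 0.0584 to 0.0688). Median centring (0.0574) and robust moderation (0.0512) ended that of Kcna2, and the mean of probe sets ended that of Ret (0.111). The fit without the 16 other arrays has fewer arrays behind its spread, and the spread of day 1 and day 7 is the larger one. Low signal near the GCRMA floor limits the sizes given for dim genes.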
